A study of Mus musculus with 18 samples.

Results

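Hox genes encode homeodomain transcription factors that lie in 4 clusters in the mouse genome, Hoxa on chromosome 6, Hoxb on chromosome 11, Hoxc on chromosome 15 and Hoxd on chromosome 2. Genes at the same place in different clusters are paralogs and share a number, with low numbers at the 3′ end of a cluster. In the embryo the 3′ genes are used toward the head and the 5′ genes toward the tail and the ends of the limbs, and fibroblasts keep much of the Hox pattern of the site they came from. The genes were taken by symbol (Hoxa, Hoxb, Hoxc or Hoxd followed by a number) from a table of 48709 genes, which held 39 of them. Described here are 38, namely 10 Hoxa, 10 Hoxb, 9 Hoxc and 9 Hoxd genes.

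The cells were mouse embryonic fibroblasts (MEFs) of the strain C57BL/6, and the study asked about IMP2, the mRNA-binding protein encoded by Igf2bp2. RNA-seq was made from 4 groups of 3 libraries, namely cells given Imp2 siRNA and interleukin-17 (IL-17), Imp2 siRNA alone, control siRNA and IL-17, and control siRNA alone. IL-17, an inflammatory cytokine, was given at 200 ng/mL for 8 h, starting 24 h after transfection, and the labels call the control groups Mock where the design text speaks of an siRNA control. RNA immunoprecipitation (RIP-seq) was made with anti-IMP2 antibody (3 libraries) and with rabbit IgG (3 libraries), all from MEFs after 3 h of IL-17 at the same dose. The titles of 4 RNA-seq libraries, 1 in each group, start with RB160 and those of the other 8, 2 in each group, with NA. No source used here says what the prefixes stand for or whether libraries of a group came from separate embryos or cultures, so p-values measure the spread between these libraries, which may be technical.

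The libraries held 33841054 to 44433699 counts, of which these Hox genes took 0.0393 to 0.0562% in RB160 libraries and 0.0330 to 0.0416% in NA libraries. Igf2bp2, the siRNA's target, lay between 18.4 and 28.2 CPM (counts scaled by library size and edgeR's TMM factors) in the 6 Imp2 siRNA libraries, against 134 to 168 CPM in the 6 control siRNA libraries. The summed level of 10 fibroblast markers was 26970 to 35210 CPM in RB160 libraries and 28840 to 37290 CPM in NA libraries, and Epcam, Pecam1 and Ptprc, which define epithelial, endothelial and blood cells, each had at most 16 counts over the 12 libraries. Other markers of these cells had more. The leukocyte markers Cd68 and Csf1r had 1442 and 622 counts. The epithelial markers Krt18, Cdh1 and Krt8 had 385, 261 and 147, and the endothelial markers Kdr and Cdh5 had 236 and 126.

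Of the 38 Hox genes, 24 had enough counts to be tested, which were 8 Hoxa, 8 Hoxb and 7 Hoxc genes and, of the Hoxd cluster, Hoxd8 alone. The tested gene with the fewest counts had 605 over the 12 libraries. The other 14 were at or near the floor. Hoxb1, Hoxc12, Hoxd1, Hoxd10, Hoxd11, Hoxd12 and Hoxd13 had 0 counts in every library, which allows up to 0.0675 to 0.0886 CPM per library (3 counts of its total, for counting error only). Hoxa11, Hoxa13, Hoxb13, Hoxc13, Hoxd3, Hoxd4 and Hoxd9 had counts, but no more than 12 in any library. Those 14 include every gene numbered 12 or 13, the genes used at the tail end and in the digits. The spans of 22 of the 38 genes overlap another gene in the table, for example Hoxa3 over Hoxa4, Hoxa5 and Hoxa6. No source used here says whether counting used strand, so reads of genes that overlap on opposite strands could not be told apart. Hoxa3 to Hoxa6 lie on the same strand, where strand does not separate reads. Hoxc5 likewise overlaps Hoxc6, Hoxc8, Hoxc9 and Hoxc10 on its own strand.

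More Hox genes differed between libraries of the 2 title prefixes than in any other comparison made. Relative to NA libraries, RB160 libraries had more RNA of all 8 tested Hoxb genes, of Hoxd8 and of Hoxa2 to Hoxa7, and less of Hoxa9, Hoxa10, Hoxc6, Hoxc9, Hoxc10 and Hoxc11. By edgeR's quasi-likelihood test with Benjamini-Hochberg adjustment over all 13702 genes tested and a threshold of 0.05, 23 of 24 Hox genes differed, 17 higher and 6 lower in RB160, where 69.3% of all genes tested differed, 34.8% higher and 34.5% lower. The median log2 difference of the Hox genes was 1.21, against 0.0020 for all genes. In bulk RNA, fewer cells of a kind and less RNA per cell cannot be told apart.

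Hoxb9, the Hoxb gene with the most counts, had 65.4, 59.97, 61.4 and 57.7 CPM in the 4 RB160 libraries. In the 8 NA libraries it lay between 4.64 and 9.86 CPM. No RB160 library came near an NA library, and the log2 difference was 3.05 ± 0.12 (SE, adjusted p = 3.48e-09). Hoxb6 had 11.1, 12.4, 8.79 and 11.01 CPM in RB160 libraries, against 0.533 to 1.82 CPM in NA libraries. Hoxb7 had 11.6, 17.6, 11.2 and 17.1 CPM in RB160 libraries, against 0.699 to 2.93 CPM in NA libraries. For both genes the prefixes did not overlap, and the log2 differences were near that of Hoxb9, at 3.24 ± 0.14 and 3.16 ± 0.15 (SE, adjusted p = 1.49e-10 and 2.18e-09). Hoxb3 had 12.9, 14.96, 12.6 and 11.6 CPM in RB160 libraries, against 0.972 to 2.19 CPM in NA libraries, a log2 difference of 2.94 ± 0.12 (SE, adjusted p = 8.32e-11). Hoxb5 had 3.29, 3.95, 2.98 and 3.64 CPM in RB160 libraries, against 0.205 to 0.687 CPM in NA libraries, and Hoxd8 had 2.98, 2.64, 2.12 and 3.54 CPM, against 0.125 to 0.627 CPM. Their log2 differences were 3.21 ± 0.19 and 2.76 ± 0.22 (SE, adjusted p = 2.28e-09 and 4.65e-08), on few reads in NA libraries, where Hoxb5 had a median of 12 counts and Hoxd8 of 15. The Hoxb gene that differed least was Hoxb4, at 1.26 ± 0.12 (SE, adjusted p = 2.98e-07).

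Summed over its genes, the Hoxb cluster gave 130 ± 8.65 CPM in RB160 libraries (SD, n = 4), against 18.4 ± 4.25 CPM in NA libraries (SD, n = 8). The Hoxc cluster went the other way, with 190 ± 30.1 CPM in RB160 libraries and 274 ± 18.8 CPM in NA libraries, and the Hoxa sums of the genes described overlapped, with 104 ± 26.1 CPM in RB160 libraries and 93.75 ± 5.78 CPM in NA libraries (SD, n = 4 and n = 8). These sums add genes of different lengths, so they compare libraries and not clusters.

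Of the tested genes numbered 2 to 8, 6 of 6 Hoxa genes, 7 of 7 Hoxb genes and Hoxd8 were higher in RB160, while of 4 Hoxc genes 2 were higher and 1, Hoxc6, was lower. Of those numbered 9 to 11, all 5 in the Hoxa and Hoxc clusters were lower, and Hoxb9 was higher. In the Hoxc cluster the direction did not run evenly along the numbers, with 0.64 for Hoxc4 and 0.16 for Hoxc8 on either side of Hoxc6. Hoxa10, the Hoxa gene with the most counts, had 16.0, 17.8, 12.3 and 13.0 CPM in RB160 libraries, against 27.1 to 33.0 CPM in NA libraries, a log2 difference of -1.05 ± 0.07 (SE, adjusted p = 1.36e-08). Hoxc6, the Hoxc gene with the most counts, had 73.1, 71.7, 62.3 and 58.8 CPM in RB160 libraries, against 97.8 to 108 CPM in NA libraries, a log2 difference of -0.64 ± 0.05 (SE, adjusted p = 5.14e-08). The greatest drop was that of Hoxc11, at -2.40 ± 0.23 (SE, adjusted p = 3.70e-07). Hoxc5, whose span overlaps Hoxc6, Hoxc8, Hoxc9 and Hoxc10, did not pass, at 0.02 ± 0.10 (SE, adjusted p = 0.845). By CPM, RB160 and NA libraries did not overlap in 20 of the 24 genes, 14 of them higher and 6 lower in RB160, where 18.9% and 18.4% of all genes were so separated. The 4 genes that overlapped were Hoxa7, Hoxc4, Hoxc5 and Hoxc8. The call of Hoxa7 was lost without control siRNA replicate 1 or control siRNA with IL-17 replicate 1 (adjusted p = 0.0535 and 0.0749). That of Hoxc8 was lost without any 1 of 6 libraries, Imp2 siRNA replicate 1 or 2, control siRNA replicate 1, 2 or 3, or control siRNA with IL-17 replicate 2 (adjusted p = 0.0700, 0.0625, 0.208, 0.0560, 0.0595 and 0.0584).

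**Figure D1:**
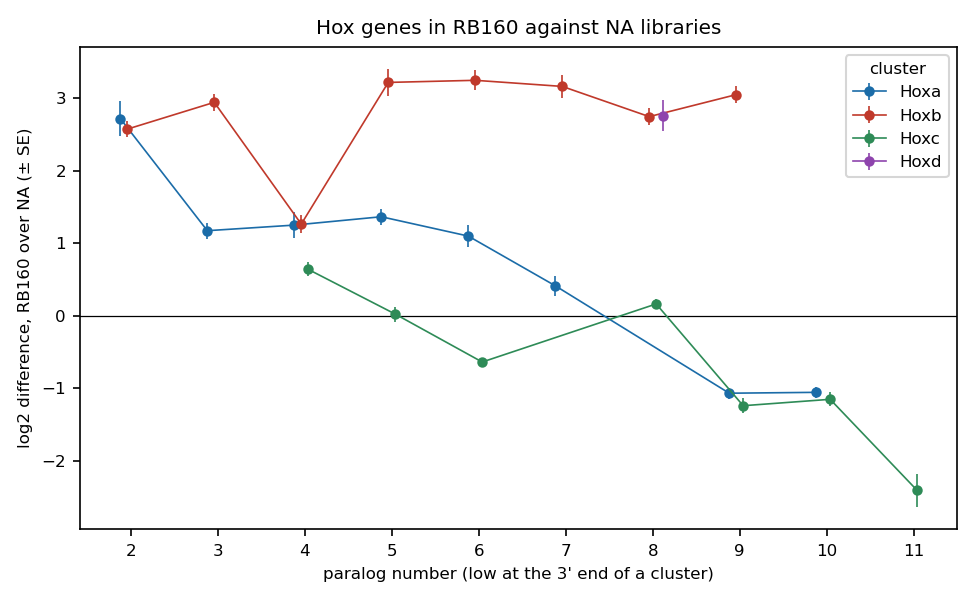
The log2 difference of RB160 over NA libraries (y axis, ± SE from edgeR) for each tested Hox gene against its paralog number (x axis, low at the 3′ end), with a line for each cluster. The Hoxb genes lie between 1.26 and 3.24, while Hoxa and Hoxc genes numbered 9 to 11 lie between -2.40 and -1.05.

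**Figure D2:**
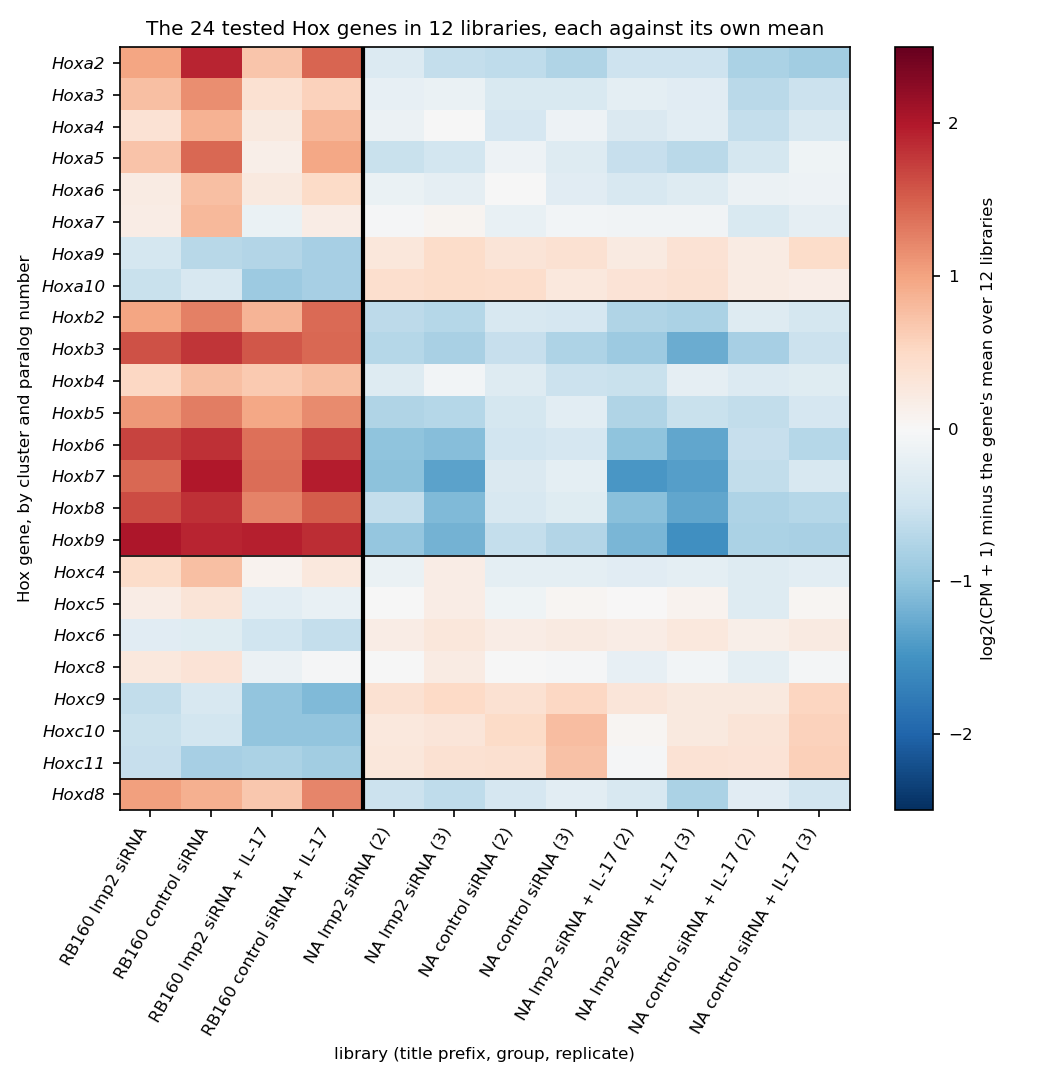
The 24 tested Hox genes (rows) in the 12 libraries (columns, 4 RB160 libraries left of 8 NA libraries), coloured by log2(CPM + 1) minus the gene's own mean over the 12 libraries, red above and blue below. Hoxb rows are red in RB160 and blue in NA columns in all 4 groups, so that libraries of 1 group differ more by prefix than groups do.

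Other measures moved with the prefix. Mitochondrial genes took 3.31 to 3.85% of counts in RB160 libraries and 5.41 to 6.90% in NA libraries. Of 6 neural and glial markers the sum was 314 to 430 CPM in RB160 libraries and 888 to 951 CPM in NA libraries, nearly all of it Nes and Tubb3, with Sox10, which defines the neural crest and glia, at 3 counts in all. Of 6 epithelial markers the sum was 2.26 to 3.36 CPM in RB160 and 0.525 to 1.72 CPM in NA libraries, of 5 endothelial markers 0.520 to 0.688 CPM and 0.881 to 1.502 CPM, of 5 leukocyte markers 3.81 to 5.63 CPM and 3.89 to 6.09 CPM, and of 5 skeletal muscle markers 0.433 to 0.662 CPM and 1.11 to 1.98 CPM, with Adgre1, Myod1, Myf5 and Pax7 at 0. No erythroid marker had more than 2 counts in all. Of the 10 fibroblast markers 6 were higher and 2 lower in RB160, among them Pdgfra by 2.78 and Thy1 by -4.50 on the log2 scale, with Thy1 at a mean of 0.172 CPM in RB160 and 4.07 CPM in NA libraries. The part of these measures in the Hox difference was not tested.

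A few Hox genes changed with Imp2 siRNA. In cells without IL-17, Hoxb7, Hoxb6, Hoxa5, Hoxb2 and Hoxb8 fell. This made 0 genes higher and 5 lower (20.8%) of 24 tested, where 32.4% of all genes were called, 16.1% higher and 16.4% lower. In cells given IL-17, Hoxb7, Hoxb2, Hoxb6 and Hoxa5 fell, 0 higher and 4 lower (16.7%) of 24, where 33.3% of all genes were called, 16.7% higher and 16.6% lower. By edgeR 6 Hox genes in each contrast had an unadjusted p under 0.05 in either direction. Of all 13702 genes, 5875 reached this without and 5892 with IL-17. DESeq2 called 0 Hox genes higher in each contrast, with 4 lower without and 5 lower with IL-17. The shares of Hox genes called lower were near those of all genes. The median log2 fold change over the 24 genes was -0.16 without and -0.18 with IL-17, against -0.0004 and -0.0067 for all genes, and none of the 7 tested Hoxc genes was called in either contrast. All calls were made with the prefix as a term of the model, and with no such term none of the 24 passed in either contrast. Most calls of other genes were lost too, with 303 of all 13702 genes passing without IL-17, against 4446 with the term. Of the 10 fibroblast markers 2 rose and 6 fell in each contrast, Pdgfra by the most at -2.23 without and -2.31 with IL-17. Of 3 tested epithelial markers, Krt8 rose by 1.72 and Cdh1 fell by 1.15 without IL-17 (adjusted p = 0.00676 and 0.0166), and with it Krt8 rose by 2.62, Krt18 rose by 1.34 and Cdh1 fell by 1.25 (adjusted p = 0.00151, 0.0141 and 0.0103). The sum of the 6 epithelial markers was 1.52 to 3.36 CPM in Imp2 siRNA cells and 1.10 to 2.43 CPM in control siRNA cells, and with IL-17 1.41 to 2.67 CPM and 0.525 to 2.26 CPM, with Epcam at 15 counts over the 12 libraries. Of the 2 tested endothelial markers, Cdh5 fell by 1.64 without IL-17 (adjusted p = 0.0188). The part of these markers in the Hox changes was not tested.

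Hoxb7 had 11.6 CPM in the RB160 library and 1.29 and 0.846 CPM in the NA libraries of Imp2 siRNA cells, against 17.6 CPM in the RB160 library and 2.59 and 2.93 CPM in the NA libraries of control siRNA cells. With IL-17 it had 11.2 CPM and 0.699 and 0.784 CPM in Imp2 siRNA cells, against 17.1 CPM and 2.05 and 2.54 CPM in control siRNA cells. Within each prefix every Imp2 siRNA library lay below every control library. The log2 fold change was -0.998 ± 0.23 without IL-17 (SE, adjusted p = 0.00504) and -1.02 ± 0.23 with it (SE, adjusted p = 0.00459). The change with IL-17 was -1.59 without Imp2 siRNA with IL-17 replicate 1, the RB160 library (adjusted p = 0.000351). Hoxb7 passed the threshold in both siRNA contrasts whichever of the 12 libraries was left out.

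Hoxa5 had 15.04 CPM in the RB160 library and 5.61 and 6.07 CPM in the NA libraries of Imp2 siRNA cells, against 25.2 CPM in the RB160 library and 7.86 and 6.78 CPM in the NA libraries of control siRNA cells, a log2 fold change of -0.50 ± 0.16 (SE, adjusted p = 0.0270). With IL-17 it had 9.83 CPM and 5.56 and 5.08 CPM in Imp2 siRNA cells, against 18.1 CPM and 6.21 and 8.09 CPM in control siRNA cells, a log2 fold change of -0.59 ± 0.16 (SE, adjusted p = 0.0132). Imp2 siRNA libraries again lay below control libraries of their prefix, by more in RB160. The call without IL-17 was lost without control siRNA replicate 1, which took the change to -0.26 (adjusted p = 0.209), and without Imp2 siRNA replicate 1, 2 or 3 (adjusted p = 0.0960, 0.0837 and 0.0639). The call with IL-17 was lost without Imp2 siRNA with IL-17 replicate 1, which took the change to -0.36, or control siRNA with IL-17 replicate 3 (adjusted p = 0.0914 and 0.0587).

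Hoxb6 had 11.1 CPM in the RB160 library and 0.877 and 0.787 CPM in the NA libraries of Imp2 siRNA cells, against 12.4 CPM and 1.69 and 1.82 CPM in control siRNA cells, a log2 fold change of -0.58 ± 0.20 (SE, adjusted p = 0.0427). Hoxb8 had 17.0 CPM in the RB160 library and 2.81 and 1.69 CPM in the NA libraries of Imp2 siRNA cells, against 19.5 CPM and 3.39 and 3.70 CPM in control siRNA cells, a log2 fold change of -0.45 ± 0.16 (SE, adjusted p = 0.0456). Both lay just inside the threshold. The call of Hoxb6 was lost without any 1 of 6 libraries, Imp2 siRNA replicate 2 or 3, control siRNA replicate 2 or 3, Imp2 siRNA with IL-17 replicate 2 or control siRNA with IL-17 replicate 3 (adjusted p = 0.112, 0.131, 0.104, 0.121, 0.0538 and 0.0561), and its change was -0.94 without Imp2 siRNA replicate 1 and -0.88 without control siRNA replicate 1. The call of Hoxb8 was lost without any 1 of 8 libraries (adjusted p = 0.0532 to 0.162), which were Imp2 siRNA replicates 1 and 3, control siRNA replicates 2 and 3, Imp2 siRNA with IL-17 replicate 2 and control siRNA with IL-17 replicates 1, 2 and 3, with a change of -0.29 without Imp2 siRNA replicate 3. With IL-17, Hoxb6 changed by -0.60 ± 0.21 (SE, adjusted p = 0.0405) and Hoxb8 by -0.45 ± 0.17 (SE, adjusted p = 0.0540). Hoxb2 changed by -0.48 ± 0.16 without IL-17 (SE, adjusted p = 0.0345) and -0.76 ± 0.16 with it (SE, adjusted p = 0.00225), at levels of 0.564 to 6.15 CPM over the 12 libraries. Its call without IL-17 was lost without any 1 of the 6 libraries compared (adjusted p = 0.0551 to 0.0983), and that of Hoxb6 with IL-17 without Imp2 siRNA with IL-17 replicate 2 or 3 or control siRNA with IL-17 replicate 2 or 3 (adjusted p = 0.0696, 0.119, 0.108 and 0.0823).

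**Figure D3:**
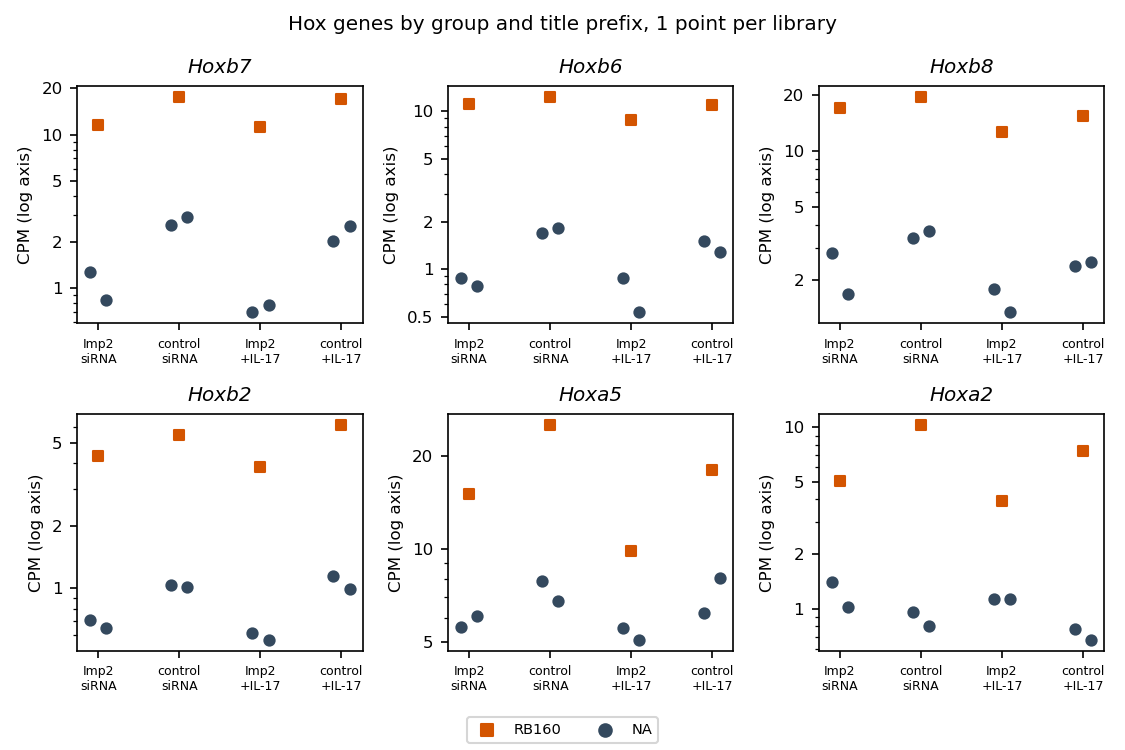
Hoxb7, Hoxb6, Hoxb8, Hoxb2, Hoxa5 and Hoxa2 in each of the 12 libraries (y axis, CPM on a log axis), by group (x axis) and title prefix (squares RB160, circles NA). Hoxb7 is lower with Imp2 siRNA in both prefixes, while Hoxa2 is lower in RB160 and higher in NA libraries.

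Promoters of 4 genes are shown to let genes that moved differently with Imp2 siRNA be compared. Hoxb8 and Hoxa5 are those called lower without IL-17 that had an entry in the promoter table used, Hoxb4 is the other tested Hoxb gene with an entry and was called in neither siRNA contrast, and Hoxa2 is the gene whose change differed most between the prefixes. Each holds 250 bases before to 50 bases after the annotated start (RefSeq, GRCm38.p6), read on the gene's strand, which is plus on chromosome 11 for Hoxb8 (chr11:96281655-96281954) and Hoxb4 (chr11:96318017-96318316) and minus on chromosome 6 for Hoxa2 (chr6:52164782-52165081) and Hoxa5 (chr6:52204538-52204837). Capitals mark each CCAAT, the box bound by NF-Y, and each TGATNNAT, the form of site bound by pairs of PBX and Hox proteins, on either strand, so that CCAAT on the other strand reads ATTGG.
Hoxb8: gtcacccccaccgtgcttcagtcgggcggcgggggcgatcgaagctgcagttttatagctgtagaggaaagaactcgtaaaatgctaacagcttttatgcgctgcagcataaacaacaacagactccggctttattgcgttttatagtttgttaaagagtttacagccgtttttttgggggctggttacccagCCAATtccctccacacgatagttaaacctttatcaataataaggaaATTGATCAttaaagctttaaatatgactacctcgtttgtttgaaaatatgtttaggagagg
Hoxb4: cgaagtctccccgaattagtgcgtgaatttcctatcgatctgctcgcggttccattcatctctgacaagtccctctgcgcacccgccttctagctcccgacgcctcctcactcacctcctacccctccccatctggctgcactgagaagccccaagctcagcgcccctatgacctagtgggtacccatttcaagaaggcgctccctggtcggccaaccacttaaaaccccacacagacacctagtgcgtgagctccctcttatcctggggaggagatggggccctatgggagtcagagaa
Hoxa2: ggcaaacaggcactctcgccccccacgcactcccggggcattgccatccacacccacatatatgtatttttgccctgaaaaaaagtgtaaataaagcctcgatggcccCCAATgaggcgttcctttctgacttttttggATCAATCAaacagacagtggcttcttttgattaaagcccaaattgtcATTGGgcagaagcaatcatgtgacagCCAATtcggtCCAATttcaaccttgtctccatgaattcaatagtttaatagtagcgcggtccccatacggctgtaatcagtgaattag
Hoxa5: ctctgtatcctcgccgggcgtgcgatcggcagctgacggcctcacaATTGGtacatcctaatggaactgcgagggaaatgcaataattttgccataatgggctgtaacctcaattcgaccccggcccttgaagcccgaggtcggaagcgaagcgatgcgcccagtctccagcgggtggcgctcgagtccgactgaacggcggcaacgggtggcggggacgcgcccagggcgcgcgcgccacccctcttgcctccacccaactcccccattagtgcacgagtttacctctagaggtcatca
Hoxa2 held 4 CCAAT and 1 TGATNNAT, Hoxb8 held 1 of each and Hoxa5 held 1 CCAAT, where 37.4% of 32851 promoters of the same length held CCAAT and 8.85% held TGATNNAT. No match for either motif lay in the window of Hoxb4. Of the 24 tested Hox genes 11 had an entry, with 12 promoters, of which 7 held CCAAT and 2 held TGATNNAT. In none of the marked CCAAT did the letters overlap a TGATNNAT, and a match describes letters only.

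The effect of Imp2 siRNA differed between the prefixes for 7 of the 24 Hox genes, in opposite directions for the 4 Hoxa and the 3 Hoxb genes among them. In Hoxa genes the RB160 effect lay below the NA effect for Hoxa2, Hoxa4, Hoxa7 and Hoxa3, and in Hoxb genes it lay above it for Hoxb7, Hoxb6 and Hoxb9. These 7 are 29.2% of 24, where 6.13% of all genes passed the test of the difference itself, 3.54% with the RB160 effect above and 2.59% below the NA effect, with the siRNA effect averaged over cells with and without IL-17. RB160 had 1 library in each group, so its spread was taken to be that of the NA libraries. Not every gene leaned with its cluster, with a difference of 0.20 ± 0.13 for Hoxa9 and -0.31 ± 0.22 for Hoxb4 (SE), neither called. DESeq2 did not call Hoxa4, Hoxb7 or Hoxb6, and the call of Hoxb6 was lost without most single NA libraries.

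Hoxa2, needed for the second pharyngeal arch in the mouse embryo, had 5.04 CPM and, with IL-17, 3.91 CPM in the RB160 libraries of Imp2 siRNA cells, against 10.4 CPM and 7.37 CPM in those of control siRNA cells. In the NA libraries it had 1.404 and 1.02 CPM and, with IL-17, 1.13 and 1.13 CPM in Imp2 siRNA cells, against 0.956 and 0.806 CPM and, with IL-17, 0.770 and 0.671 CPM in control siRNA cells. It was thus lower with Imp2 siRNA in both RB160 pairs and higher in all NA libraries. The NA values rest on few reads, with 23 to 48 counts per library. Imp2 siRNA replicate 3 and control siRNA replicate 2 both had 35 counts, so these 2 were separated only by scaling. The log2 effect was -0.98 ± 0.16 within RB160 (SE, adjusted p = 0.000166) and 0.55 ± 0.18 within NA (SE, adjusted p = 0.0183), a difference of -1.52 ± 0.24 (SE, adjusted p = 0.000889). Hoxa3 and Hoxa7 also passed in opposite directions, Hoxa3 at -0.31 ± 0.09 within RB160 and 0.30 ± 0.07 within NA, and Hoxa7 at -0.51 ± 0.09 within RB160 and 0.19 ± 0.06 within NA (SE). Hoxa4 passed within RB160, at -0.70 ± 0.19 (SE, adjusted p = 0.00918), and had 0.32 ± 0.17 within NA (SE, adjusted p = 0.131).

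Of the Hoxb genes, Hoxb7 fell in both prefixes, with -0.61 ± 0.13 within RB160 (SE, adjusted p = 0.00225) and -1.49 ± 0.16 within NA (SE, adjusted p = 7.53e-07). Hoxb6 had -0.24 ± 0.14 within RB160 (SE, adjusted p = 0.215) and fell by 1.03 ± 0.17 within NA (SE, adjusted p = 0.000110). Hoxb9 had 0.11 ± 0.10 within RB160 (SE, adjusted p = 0.461) and fell by 0.54 ± 0.09 within NA (SE, adjusted p = 0.000273). Over the cluster, 2 of 8 Hoxb genes fell within RB160 and 6 of 8 within NA, while of 8 Hoxa genes 5 fell within RB160 and 3 rose and 1 fell within NA. Counted over all 24, 7 were called within RB160, each of them lower, where 29.5% of all genes were called, and 3 rose and 8 fell within NA, where 46.0% were called. Hoxa5, Hoxb2 and Hoxb7 fell in both. Among the Hoxc genes only Hoxc10 was called, at -0.33 ± 0.08 within NA (SE). The sign of the ratio of Imp2 siRNA to control siRNA was opposite in RB160 and NA libraries for 12 of 24 genes without IL-17 and for 14 of 24 with it (differences of mean log2(CPM + 1)), where 27.3% and 27.2% of all genes had opposite signs. Some of these ratios lay near 0, such as -0.11 in RB160 and 0.01 in NA libraries for Hoxc8 with IL-17.

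**Figure D4:**
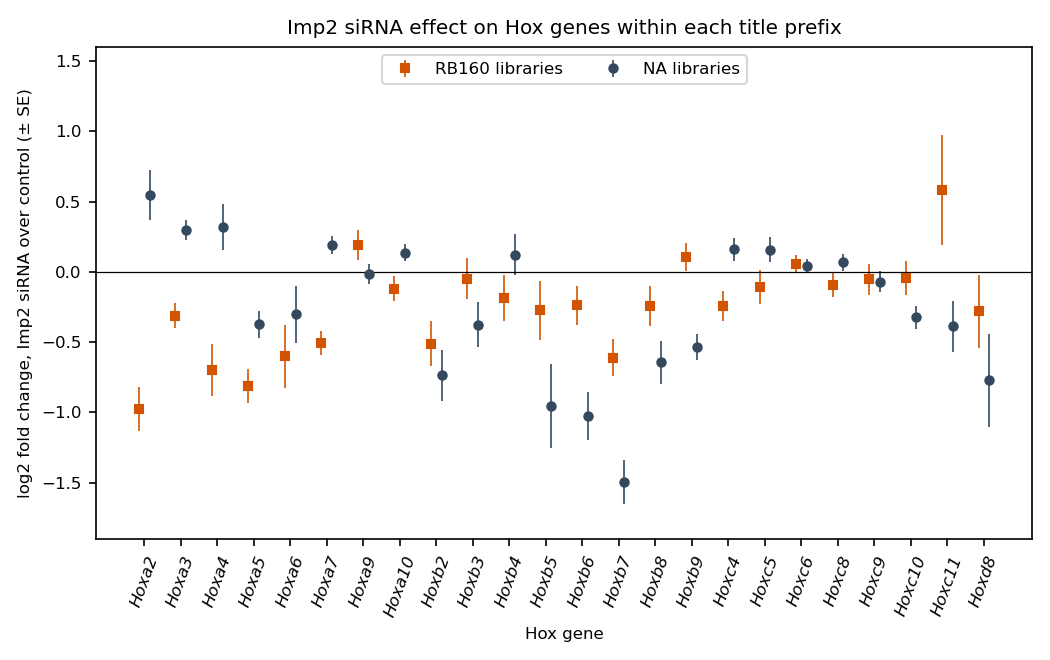
The log2 effect of Imp2 siRNA over control siRNA (y axis, ± SE from edgeR, averaged over cells with and without IL-17) on each tested Hox gene (x axis), within RB160 libraries (squares) and within NA libraries (circles). Hoxa2 lies at -0.98 in RB160 and 0.55 in NA, and Hoxb7 at -0.61 and -1.49.

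IL-17 for 8 h changed no Hox gene past the threshold. In Imp2 siRNA cells 0 of 24 were called, where 0.452% of all genes were, and in control siRNA cells 0 of 24, where 0.409% were. At an unadjusted p under 0.05 there were 3 Hox genes in Imp2 siRNA cells and 6 in control siRNA cells. Of all 13702 genes, 1007 and 1473 reached this. DESeq2 also called 0 Hox genes in each. The fold changes lay mostly below 0, in 23 of 24 genes in Imp2 siRNA cells and in 21 of 24 in control siRNA cells, where 52.8% and 52.1% of all genes did. They were small, with medians of -0.22 in Imp2 siRNA cells and -0.22 in control siRNA cells. The greatest in both was that of Hoxb8. In Imp2 siRNA cells it had 12.6 CPM in the RB160 library and 1.79 and 1.35 CPM in the NA libraries with IL-17, against 17.0 CPM and 2.81 and 1.69 CPM without it. In control siRNA cells it had 15.4 CPM and 2.39 and 2.51 CPM with IL-17, against 19.5 CPM and 3.39 and 3.70 CPM without it. Within a prefix the IL-17 libraries lay below the untreated ones in control siRNA cells, and the NA libraries overlapped in Imp2 siRNA cells. Its log2 fold change was -0.46 ± 0.17 in Imp2 siRNA cells (SE, adjusted p = 0.483) and -0.46 ± 0.16 in control siRNA cells (SE, adjusted p = 0.298). Within both prefixes alike, the ratio of IL-17 to untreated lay below 0 in 21 of 24 genes in Imp2 siRNA cells and in 20 of 24 in control siRNA cells, where 32.1% and 34.2% of all genes did so. For the difference between the siRNA effects with and without IL-17, 0 of 24 Hox genes and 0.0% of all genes passed in edgeR, with 0 Hox genes and 141 of 13702 genes at an unadjusted p under 0.05 and 0 by DESeq2.

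In the RIP-seq, 11 Hox RNAs were among the 5294 genes that the authors' deposited table lists as higher with anti-IMP2 than with IgG. They were matched by Ensembl ID and were 1 Hoxa, 5 Hoxb and 5 Hoxc genes, 45.8% of the 24 Hox genes tested in RNA-seq, where 34.5% of all genes tested there were listed. In the authors' deposited table the log2 fold change was 2.90 ± 0.557 for Hoxa7 (SE, adjusted p = 1.63e-06), 2.78 ± 0.720 for Hoxc4 (adjusted p = 0.000476) and 2.77 ± 0.599 for Hoxc9 (adjusted p = 2.31e-05). It was 2.28 for Hoxb2, 2.12 for Hoxb7, 2.01 for Hoxc8, 1.86 for Hoxb4, 1.69 for Hoxb9, 1.52 for Hoxb6, 1.45 for Hoxc6 and 1.405 for Hoxc10 in the same deposited table. The lowest fold change in the authors' deposited table is 1 and its highest adjusted p is 0.04999, so a gene it does not list has no value here. The median of the 11, 2.01, lay near the 2.16 of all genes in the authors' deposited table. No source used here ties the RIP-seq cells to either prefix.

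Hox RNAs listed in the RIP-seq and Hox RNAs changed by Imp2 siRNA overlapped in Hoxb2, Hoxb6 and Hoxb7. Of the 11 listed, these 3 fell and 0 rose without IL-17, and the same 3 fell and 0 rose with it. Of the 13 tested and not listed, 2 fell (Hoxa5 and Hoxb8) and 0 rose without IL-17, and 1 fell (Hoxa5) and 0 rose with it, where 16.4% of all genes were called lower without and 16.6% with IL-17. Listed and unlisted genes were not tested against each other. The 5 listed Hoxc RNAs were called in neither siRNA contrast over all libraries. Of these, Hoxc10 had -0.33 ± 0.08 within NA and -0.04 ± 0.12 within RB160 libraries (SE, averaged over cells with and without IL-17). Hoxa7, the highest of the 11, had -0.14 ± 0.18 without IL-17 (SE, adjusted p = 0.593) and 0.03 ± 0.18 with it (SE, adjusted p = 0.913). These values average over prefixes in which Hoxa7 moved in opposite directions, at -0.51 ± 0.09 within RB160 and 0.19 ± 0.06 within NA (SE). Hoxb9, also listed and called in neither contrast, had 0.11 ± 0.10 within RB160 and -0.54 ± 0.09 within NA (SE).

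**Figure D5:**
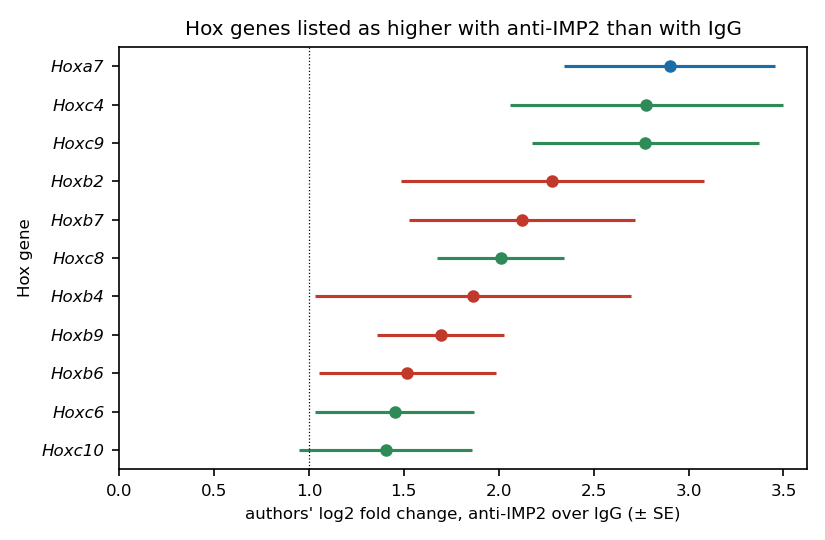
The authors' log2 fold change of anti-IMP2 over IgG (x axis, ± their SE) for the 11 Hox genes in their list (y axis), blue for Hoxa, red for Hoxb and green for Hoxc, with a dotted line at the list's minimum of 1. They lie between 1.405 for Hoxc10 and 2.90 for Hoxa7.

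Lists of partners and regulators of Hox genes held genes that were called with Imp2 siRNA, as 32.4% of all genes were without and 33.3% with IL-17. Over the 5 lists of protein-coding genes the share called ran from 39.3% (Polycomb) to 63.6% (Trithorax) without IL-17 and from 39.3% (Polycomb) to 64.3% (retinoic acid) with it, and no list was tested against the other genes. The list of 10 TALE homeodomain genes held Pbx, Meis and Pknox genes, whose proteins bind DNA together with Hox proteins, and also Tgif1 and Tgif2. Of these 10, 1 rose and 4 fell without IL-17 and 1 rose and 3 fell with it. Among them Meis2 had -0.76, Pbx2 -0.48, Pknox2 -0.46 and Tgif1 0.32 without IL-17 (adjusted p = 3.95e-05, 6.80e-05, 0.0298 and 0.00149). Of 28 Polycomb genes, whose products keep Hox genes silent, 6 rose and 5 fell without IL-17 and 7 rose and 4 fell with it, among them Phf19 at -0.67, Cbx7 at -0.67, Pcgf5 at 0.39 and Cbx6 at -0.37. A list of Trithorax genes and H3K27 demethylases, which keep Hox genes active, held 11 genes, counting Dot1l, which is neither. Of the 11, 3 rose and 4 fell in each contrast, among them Dot1l at 0.56, Kdm6b at 0.53, Psip1 at -0.51 and Wdr5 at -0.25 without IL-17. Of 14 tested genes of retinoic acid, the signal that switches on 3′ Hox genes in the embryo, 2 rose and 6 fell without IL-17 and 3 rose and 6 fell with it. They included Stra6, which takes up retinol, at -2.24, Aldh1a2, which makes retinoic acid, at -1.11, Dhrs3, which turns retinal back to retinol, at 0.96 and Rdh10, which makes retinal from retinol, at -0.52. Stra6 and Aldh1a2 were low, with means of 0.408 and 0.0425 CPM in RB160 libraries and 1.03 and 0.938 CPM in NA libraries. Of 26 other tested transcription factors that mark position in the body, 1 rose and 10 fell without IL-17 and 2 rose and 13 fell with it, led by Hand2 at -1.44, Pax1 at -1.10, Osr2 at -0.95 and Foxd1 at -0.83. Hand2 was low, with means of 0.135 CPM in RB160 and 1.59 CPM in NA libraries. Of the 4 tested noncoding RNAs of the Hox clusters, none was called in either siRNA contrast.

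Between the prefixes these lists went both ways, with shares called from 5 of 10 (TALE) to 82.1% (Polycomb), where 34.8% of all genes were higher and 34.5% lower. Higher and lower in RB160 than in NA libraries were 2 and 3 of 10 TALE genes, 14 and 9 of 28 Polycomb genes, 5 and 3 of the 11 genes in the list of Trithorax genes and H3K27 demethylases, 4 and 7 of 14 retinoic acid genes and 10 and 10 of 26 other positional factors. Of the cluster noncoding RNAs, 4 of 4 were higher. Each overlaps at least 1 Hox gene that was itself higher in RB160, and their reads could not be told apart without knowing whether counting used strand. The Hoxb antisense RNAs Hoxb5os and Hoxb3os were higher by 4.02 and 3.67 on the log2 scale (adjusted p = 1.75e-07 and 1.66e-06), on averages of 1.16 and 1.04 CPM in RB160 libraries and 0.0686 and 0.0808 CPM in NA libraries.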

How the data were processed

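For RNA-seq the authors deposited raw counts of reads for each gene, whole numbers with a different total in each library. For RIP-seq the authors' deposited comparison was used, which per the file headers gives a mean normalized count (a signal), a log2 fold change with its SE, a Wald score, a p-value and an adjusted p-value. Per the submitters' processing notes, the build was mm10 and the tools were STAR, CASAVA 1.4 and DESeq2, whose roles are not stated. Libraries were made with Nextera XT (RNA-seq) and SMART-Seq v4 (RIP-seq), per the labels' protocols.

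Counts were analysed with edgeR 4.0.16 in R 4.3.3. Genes were kept by filterByExpr (13702 of 48709), scaled by TMM and fitted to all 12 libraries with a robust quasi-likelihood model of group plus title prefix; the effect by prefix came from a model with a term for each group and prefix. The biological coefficient of variation with the prefix in the model was 7.95%. Adjusted p-values are Benjamini-Hochberg values over all genes tested, and an SE is the absolute log2 fold change divided by the square root of F. The code was checked on simulated counts. Replicate numbers only name libraries: replicate 1 of each group is RB160, replicates 2 and 3 are NA. Genes named with full values were up to 10 called per siRNA contrast that averaged 5 CPM or more in either group, up to 6 by prefix, those called by prefix for the siRNA effect and the gene with the most counts in each cluster; related lists name at most 4. Other genes named were chosen after their values were seen. The Hox genes, lists and tests were chosen with earlier results of these data known. Alternatives were DESeq2 1.42.0, median-ratio factors, no filter, no prefix term, subsets of libraries, a block by title number and leaving out each library. Promoters were matched by symbol to a RefSeq table (22 of 38 Hox genes). For 1 Hox gene and a few genes of the related lists no result is reported here, though the fits and adjusted p-values cover them. Tables of gene IDs or of other genes were not used here.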

Additional observations from a re-analysis of the deposited data

Results flagged for a closer look

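For 7 Hox genes the effect of Imp2 siRNA differed between the title prefixes by a test of the difference itself (edgeR, adjusted over all genes tested), where 6.13% of all genes passed. The difference in log2 effect, RB160 minus NA, was -1.52 for Hoxa2, -1.02 for Hoxa4, -0.70 for Hoxa7, -0.61 for Hoxa3, 0.88 for Hoxb7, 0.79 for Hoxb6 and 0.64 for Hoxb9. RB160 had 1 library in each group. DESeq2 called 4 of 24 Hox genes, without Hoxa4, Hoxb7 and Hoxb6 (adjusted p = 0.259, 0.114 and 0.301). Leaving out 1 NA library ended the call of Hoxa4 for Imp2 siRNA with IL-17 replicate 3 or control siRNA with IL-17 replicate 2 (adjusted p = 0.0508 and 0.0632). It ended that of Hoxb7 for Imp2 siRNA replicate 3 or control siRNA with IL-17 replicate 3 (adjusted p = 0.0505 and 0.0503). That of Hoxb6 was lost for 7 of the 8 NA libraries, all but Imp2 siRNA with IL-17 replicate 2 (adjusted p = 0.0511 to 0.149). Mitochondrial share and other markers that moved with the prefix are given in the report, and their part in this difference was not tested.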

How the results depend on the processing

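With no prefix term, 0 Hox genes passed in the siRNA contrast without IL-17 and 0 in that with it, where Hoxb7 had -0.75 and -0.77 (adjusted p = 0.864 and 0.860). Without IL-17 that fit called 303 of all genes, against 4446 with the term. With the compared groups alone, 1 gene, Hoxc8, passed for IL-17 in Imp2 siRNA cells, lower (adjusted p = 0.0246). DESeq2 called 4 Hox genes for the siRNA effect by prefix. Of the 11 Hox genes in the authors' RIP list, 6 had a log2 fold change of at least 2, where 3040 of all 5294 listed genes did. The cause was not tested. Leaving out 1 library gave 1 to 5 Hox genes for Imp2 siRNA without IL-17 (2, 1, 2, 2, 3 and 3 without Imp2 siRNA replicate 2, Imp2 siRNA replicate 3, control siRNA replicate 2, control siRNA replicate 3, Imp2 siRNA with IL-17 replicate 2 and control siRNA with IL-17 replicate 3) and 2 to 6 with it (2 without control siRNA with IL-17 replicate 3). It gave 0 for both IL-17 contrasts and the interaction, 21 to 23 for the prefix and, over the 8 NA libraries, 5 to 7 for the effect by prefix, which was chosen after seeing the data. Of all genes, the same fits called 3169 to 4647 for Imp2 siRNA without IL-17 and 3313 to 4744 with it. They called 6 to 113 for IL-17 in control siRNA cells, 8 to 116 in Imp2 siRNA cells and 0 for the interaction. For the prefix they called 8856 to 9586, and for the effect by prefix 547 to 1011. For Imp2 siRNA without IL-17, the call of Hoxb2 was lost with DESeq2, with no expression filter, with the compared groups alone and with NA libraries alone (adjusted p = 0.108, 0.0810, 0.0800 and 0.123), that of Hoxb8 with the compared groups alone (0.0781) and that of Hoxa5 with NA libraries alone (0.1001). With NA libraries alone Hoxb5, Hoxb9 and Hoxc10 passed, each lower (0.0299, 0.0223 and 0.0451). Hoxc10 also passed, lower, with the compared groups alone (0.04). With IL-17, Hoxb8 passed with DESeq2, with no expression filter and with the compared groups alone (adjusted p = 0.0421, 0.0466 and 0.0300), and Hoxa3, higher, and Hoxb9, lower, with NA libraries alone (0.0197 and 0.00548). The prefix call of Hoxc8 was lost with no group terms (adjusted p = 0.155). In a fit chosen after seeing the data, the title numbers 1 to 4 and 5 to 8 of the NA libraries, each of which holds every group once, were a replicate block. It gave 6 Hox genes for Imp2 siRNA without IL-17 (with Hoxb5, adjusted p = 0.0446) and 5 with it (with Hoxb8, 0.0462), 0 for both IL-17 contrasts and the interaction, 23 for the prefix and, for the effect by prefix, 10 Hox genes and 1735 of all genes, against 840 without the block. No label says that these numbers pair libraries, and the differences between the 2 sets correlated weakly across genes between groups (Pearson r = 0.017 to 0.166 over 6 pairs of groups). For RIP-seq, no paired analysis was possible because only the authors' comparison was used. Hoxb5 and Hoxd8 rest on few counts in NA libraries. Other genes with low median counts there included Hoxb2 (29), Hoxa2 (35), Hoxb6 (37), Hoxa4 (49) and Hoxb7 (60).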
